A study of Homo sapiens with 3 samples.

Results

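The zinc finger (ZNF) genes of chromosome 19 were followed in Cal62 cells, a human thyroid tumour cell line, after knockdown of ADAR1, the enzyme that converts adenosine to inosine in double-stranded RNA. A gene was included when its identifier mapped to a protein-coding symbol of ZNF followed by digits only, when it lay on chromosome 19 in GENCODE, and when its deposited log2 value averaged at least 5 over the 6 libraries. The rule uses the level of a gene and no difference between conditions. It kept 209 of the 240 annotated ZNF genes of chromosome 19, in a table of 58333 genes. The remaining 31 were under the level. *ZNF763*, with a mean of 5.28, lay just inside it, and *ZNF418*, with 4.95, just outside.

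Cells were grown in DMEM with fetal bovine serum and transfected by Lipofectamine RNAiMAX with a negative control siRNA (siControl) or with either of 2 siRNAs against ADAR1 (siADAR1 #1 and siADAR1 #2). All 3 groups are the same line, no other treatment is stated, and each has 2 libraries of poly(A)+ RNA. How long after transfection RNA was isolated is not given in the sources used here. The labels list 1 sample per transfection with 2 columns each, and the methods call the columns biological replicates, so the p-values measure the spread between these libraries. Of 6 thyroid marker genes, *PAX8* had 2242 to 15557 reads per library and *FOXE1* 48 to 229, whereas *NKX2-1* had 0 reads in every library, *TG* 0 to 55, *SLC5A5* 5 to 15 and *TSHR* 33 to 84.

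The libraries held 30114840 to 50029763 reads assigned to genes. *ADAR* itself had normalized counts of 10906 and 11701 in siControl, 1328 and 2246 with siADAR1 #1 and 1663 and 2928 with siADAR1 #2, which is 15.8% and 20.3% of the control mean (log2FC −2.71 and −2.35, adjusted p = 0.00295 and 0.00128, limma). Each of the 209 ZNF genes passed the filter on low values and was tested among 20858 genes. Their lowest count in a single library was 12 reads, in *ZNF320*, and the median was 242 reads. A normalized count is the number of reads divided by the library's size factor, a log2FC is the difference of mean log2 values, and SD is given over 2 libraries throughout. A gene was called lower or higher when its adjusted p-value in limma was under 0.05 and its log2FC was beyond 0.5. In bulk RNA, fewer cells of a type and less RNA per cell cannot be told apart.

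Most ZNF proteins of chromosome 19 carry an array of C2H2 zinc fingers, each a short module in which a pair of cysteines and a pair of histidines hold a zinc ion, and together the fingers read a DNA sequence. In many of them the array follows a KRAB domain, which binds the corepressor TRIM28. TRIM28 brings in the H3K9 methyltransferase SETDB1 and HP1 proteins, and many KRAB zinc finger proteins direct this machinery to transposable elements. The genes arose by repeated tandem duplication and lie in clusters, so that neighbours often share sequence.

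To show what these genes have in common, 1 repeat unit of the finger array, from the first cysteine codon to the base before the next finger, is printed for 5 genes of the 19p12 cluster that were called lower with both siRNAs. A unit of *ZNF580*, a GC-rich gene of 19q13 also called lower with both, stands beside them. Each unit is the first of its gene that is directly followed by another finger and lies in a single coding exon (GRCh38, 84 bases). Capitals mark the codons of the 2 cysteines and 2 histidines. The unit of *ZNF681* is at chr19:23744869-23744952 (minus strand), that of *ZNF93* at chr19:19933478-19933561, that of *ZNF714* at chr19:21117103-21117186, that of *ZNF253* at chr19:19891767-19891850, that of *ZNF254* at chr19:24126802-24126885 and that of *ZNF580* at chr19:55642788-55642871 (all on the plus strand).
ZNF681: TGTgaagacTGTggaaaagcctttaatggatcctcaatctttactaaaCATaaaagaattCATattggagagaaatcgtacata
ZNF93: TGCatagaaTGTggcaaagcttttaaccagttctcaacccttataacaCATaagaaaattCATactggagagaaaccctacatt
ZNF714: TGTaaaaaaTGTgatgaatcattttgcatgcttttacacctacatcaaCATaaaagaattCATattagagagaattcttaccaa
ZNF253: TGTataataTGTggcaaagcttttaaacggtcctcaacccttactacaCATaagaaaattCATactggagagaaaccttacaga
ZNF254: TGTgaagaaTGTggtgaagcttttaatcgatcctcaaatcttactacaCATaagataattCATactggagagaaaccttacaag
ZNF580: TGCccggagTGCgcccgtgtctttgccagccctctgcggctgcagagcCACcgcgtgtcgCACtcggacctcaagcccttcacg

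Over these 84 bases *ZNF93* and *ZNF253* were 86.9% identical, *ZNF253* and *ZNF254* 84.5%, and *ZNF681* and *ZNF254* 81.0%. *ZNF714* shared 60.7% to 64.3% with the other 4 genes of its cluster, and *ZNF580* shared 32.1% to 36.9% with all 5. The units of the 19p12 genes had a GC content of 27.4% to 35.7%, and that of *ZNF580* had 69.0%.

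The 209 genes encoded a median of 12 fingers (1 to 31), and a KRAB pattern was found near the start of the coding sequence in 170 of them. The pattern misses some KRAB genes, such as *ZNF333*, so the 39 genes without it are not a class that lacks the domain. The median GC content of their transcripts was 42.4% (33.2% to 70.9%), against 48.0% for all protein-coding genes at the same level (a mean of at least 5). The share of 75-base stretches of a gene's exons that also occur in the exons of another gene was computed. It was 0 for 91 genes, had a median of 0.215% and was at least 5% in 50 genes. It passed 50% in 8 genes (*ZNF177*, *ZNF709*, *ZNF564*, *ZNF625*, *ZNF20*, *ZNF223*, *ZNF490* and *ZNF724*), whose counts are therefore uncertain. Exons of another gene on the same strand overlapped over 10% of the exon length in 31 of the 209 genes. Shared stretches and this overlap were 94.4% and 90.6% in *ZNF177*, and 92.2% and 79.4% in *ZNF709*. Stretches under such an overlap count as shared, so the share does not separate overlapping annotation from similar sequence at another place.

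Per kb of exon, the levels in siControl ran from 5.25 to 1756 normalized counts with a median of 65.9, against a median of 269 for all protein-coding genes at the same level and 130 for ZNF genes of other chromosomes. Over all 6 libraries the highest levels per kb were those of *ZNF146*, which consists of zinc fingers without a KRAB domain, *ZNF428* and *ZNF581*. In siControl these were 1756 ± 157, 458 ± 5.84 and 400.1 ± 3.03 normalized counts per kb (SD, n = 2). The exons of *ZNF581* overlap those of its neighbour *ZNF580* over 24.9% of their length on the same strand, so their reads cannot be fully told apart. None of these 3 genes was called with siADAR1 #1 (log2FC −0.07, 0.35 and 0.43), and *ZNF146* fell with siADAR1 #2, from normalized counts of 7734 and 6814 to 4835 and 4885 (log2FC −0.58 ± 0.11 SE, adjusted p = 0.00653, limma). Without siControl replicate 1 and with quantile-normalized libraries *ZNF146* was not called. Genes on the opposite strand overlap over 10% of the exon length of 24 of the 209 genes, and whether reads were counted by strand is not given in the sources used here. Among the genes named with values these include *ZNF57* (75.2%), *ZNF562* (50.7%), *ZNF428* (32.1%), *ZNF460* (24.6%) and *ZNF358* (14.1%).

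With siADAR1 #1, 41 of the 209 genes were called lower and 2 higher. Over all genes tested, 10.6% were called lower and 6.18% higher, and among the ZNF genes of chromosome 19 these shares were 19.6% and 0.957%. All genes tested include genes under the level of the rule, which are called less often: of the 12645 protein-coding genes at or above that level, 15.3% were called lower and 8.17% higher. These share the threshold and are not matched for level: the median of the mean log2 values was 10.45 in them and 8.08 in the 209 genes. It was 9.41 in ZNF genes of other chromosomes and 10.07 in the other protein-coding genes of chromosome 19. The median log2FC of the 209 genes was −0.41, with quartiles of −0.71 and −0.14, against −0.02 for all genes tested. Negative values were seen in 169 genes. The shift was of similar size in both libraries: relative to the siControl mean, the median gene was at −0.41 in replicate 1 and at −0.38 in replicate 2, whereas the siControl libraries stood at 0.06 and −0.06. Centring each library on its median moved the median of all genes tested to 0.12 and that of the ZNF genes to −0.26. Centring shifts each gene alike, so their distance from all genes, −0.38, cannot change and is not tested by it.

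The calls with siADAR1 #1 depended on the siControl libraries. Without siControl replicate 1, 0 of the 209 genes were called by limma, 48 had an unadjusted p under 0.05, and the median was −0.31, while the share of all genes tested that were called went from 16.8% to 1.88%. Without siControl replicate 2, 10 genes were called with a median of −0.48, and without siADAR1 #1 replicate 1 there were 13. With siControl replicate 1 left out, the single control library is assumed to vary like the other groups.

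Among genes called, the 5 largest falls with siADAR1 #1 were those of *ZNF285*, *ZNF681*, *ZNF607*, *ZNF575* and *ZNF358*. *ZNF607*, a KRAB zinc finger gene of 19q13.12, had normalized counts of 266 and 150 in siControl, 67.3 and 65.3 with siADAR1 #1, and 134 and 186 with siADAR1 #2 (log2FC −1.56 ± 0.32 SE with siADAR1 #1, adjusted p = 0.0164, limma). Its siControl libraries differed by more than any siADAR1 pair, yet both siADAR1 #1 libraries were below them. Of its 75-base stretches, 19.1% also occur in exons of another gene. *ZNF358*, at the telomeric side of 19p13.2, had counts of 1069 and 1049 in siControl, 333 and 480 with siADAR1 #1, and 738 and 913 with siADAR1 #2. Its fall with siADAR1 #1 (log2FC −1.40 ± 0.21 SE, adjusted p = 0.00564, limma) was separate from the siControl libraries in every library. Of its stretches, 18.3% also occur in exons of another gene, and 20.1% of its exon length is overlapped on the same strand. *ZNF575*, in 19q13.31, had counts of 42.5 and 54.1 in siControl and 12.2 and 21.4 with siADAR1 #1, against 66.9 and 92.3 with siADAR1 #2. The siRNAs thus left it on opposite sides of siControl, but only the fall was called (log2FC −1.44 ± 0.37 SE, adjusted p = 0.0332, against 0.69, adjusted p = 0.208, limma).

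The genes called higher with siADAR1 #1 were *ZNF507* and *ZNF557*. *ZNF507*, which stands alone in 19q13.11, had normalized counts of 3073 and 2873 in siControl, 5168 and 4301 with siADAR1 #1, and 3587 and 3294 with siADAR1 #2 (log2FC 0.67 ± 0.13 SE, adjusted p = 0.0135, and 0.21 ± 0.13, adjusted p = 0.272, limma). All 4 siADAR1 libraries lay above both siControl libraries. *ZNF557* had 598 and 529 in siControl, 830 and 796 with siADAR1 #1 and 784 and 784 with siADAR1 #2, again without overlap. It passed with siADAR1 #1 (log2FC 0.53, adjusted p = 0.0429, limma) and reached 0.48 with siADAR1 #2, under the fold threshold. The call of *ZNF557* was kept in 9 of 18 settings and lost when any 1 of the 6 libraries was left out. That of *ZNF507* was kept in 13 and lost without either siControl library and without siADAR1 #1 replicate 1.

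With siADAR1 #2, 38 genes were called lower and 8 higher. These are 18.2% and 3.83% of the 209 genes, beside 15.5% and 11.1% of all genes tested. Of protein-coding genes at the same level 22.8% were called lower and 13% higher. The share of ZNF genes called lower was thus above that of all genes tested and below that of these coding genes, whose median level was higher. The median log2FC was −0.19, against −0.01 for all genes tested, and 129 genes had negative values. Relative to the siControl mean, the median gene was at −0.16 in replicate 1 and −0.19 in replicate 2. Without siControl replicate 1 the median was −0.08, without siADAR1 #2 replicate 1 it was −0.19, and without siControl replicate 2 it was −0.30. Fewer genes were called in each of these fits than in the reported one. In each of them, and in the reported fit, the share of the 209 genes called in either direction was below that of all genes tested.

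*ZNF331*, a gene of 19q13.42 known from rearrangements in benign thyroid tumours, fell with siADAR1 #2 and was not called with siADAR1 #1. Its normalized counts were 758 and 781 in siControl, 817 and 700 with siADAR1 #1, and 335 and 353 with siADAR1 #2. The siADAR1 #2 libraries lay below the other 4, which overlapped each other (log2FC −1.16 ± 0.16 SE, adjusted p = 0.00165, against −0.03 ± 0.16, adjusted p = 0.935, limma). The siRNAs differed from each other for this gene (log2FC 1.13, adjusted p = 0.00134, limma). *ZNF69* had 141 and 76.5 in siControl, 53.3 and 49.0 with siADAR1 #1, and 30.6 and 27.8 with siADAR1 #2. All 4 siADAR1 libraries were lower, although only the siADAR1 #2 difference was called (log2FC −1.75 ± 0.35 SE, adjusted p = 0.00804, limma). *ZNF530* had 375 and 300 in siControl, 197 and 201 with siADAR1 #1, and 123 and 117 with siADAR1 #2. It was called lower with both siRNAs, and lower with siADAR1 #2 than with siADAR1 #1 (log2FC 0.72, adjusted p = 0.0302, limma). The siADAR1 #2 calls of *ZNF331* and *ZNF530* were kept in each alternative, and that of *ZNF69* was lost without siControl replicate 1. The siADAR1 #1 call of *ZNF530* was kept in 6 of 18 settings and lost when any 1 of the 6 libraries was left out, with median-centred or quantile-normalized libraries and after correction for GC content and length. Its call between the siRNAs was kept in 13 and lost when any 1 of the 4 siADAR1 libraries was left out.

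Among genes called, the 5 largest rises with siADAR1 #2 were those of *ZNF460*, *ZNF561*, *ZNF333*, *ZNF91* and *ZNF865*. *ZNF460* had normalized counts of 325 and 326 in siControl, 393 and 349 with siADAR1 #1, and 592 and 645 with siADAR1 #2 (log2FC 0.92 ± 0.17 SE, adjusted p = 0.00531, limma). Its siControl libraries were close together and every siADAR1 library lay above them. *ZNF91*, whose KRAB zinc finger protein binds SVA retrotransposons, had 669 and 528 in siControl, 447 and 441 with siADAR1 #1, and 1068 and 820 with siADAR1 #2. The 3 groups did not overlap: siADAR1 #2 was above siControl (log2FC 0.65 ± 0.19 SE, adjusted p = 0.037, limma), and the siADAR1 #1 libraries were below it without passing (log2FC −0.42, adjusted p = 0.177). *ZNF333*, a gene with a pair of KRAB domains, had 354 and 409 in siControl, 323 and 310 with siADAR1 #1 and 659 and 573 with siADAR1 #2 (log2FC 0.69 with siADAR1 #2, adjusted p = 0.0216, limma). The siADAR1 #2 libraries lay above the other 4 in each of these genes. The call of *ZNF460* was kept in each alternative, and those of *ZNF561*, *ZNF333* and *ZNF91* were lost without siControl replicate 1 or siADAR1 #2 replicate 1.

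The number of genes called lower with both siRNAs was 17, which is 8.13% of the 209 genes, beside 3.41% of all genes tested, 5.22% of protein-coding genes at the same level and 5.61% of ZNF genes on other chromosomes. The number called higher with both by limma was 0, beside 1.79% of all genes tested, and 1 gene had a positive log2FC with an unadjusted p under 0.05 in both. In opposite directions 1 gene was called, beside 1.55% of all genes tested. Both comparisons use the same siControl libraries. The 17 genes were *ZNF681*, *ZNF253*, *ZNF714*, *ZNF649*, *ZNF480*, *ZNF260*, *ZNF285*, *ZNF93*, *ZNF829*, *ZNF615*, *ZNF580*, *ZNF180*, *ZNF888*, *ZNF880*, *ZNF254*, *ZNF530* and *ZNF814*. Their log2FC ran from −1.64 to −0.58 with siADAR1 #1 and from −1.91 to −0.56 with siADAR1 #2. The siRNAs differed from each other in 1 of the 17, *ZNF530*. Whether or not a gene was called, its siControl libraries were both above the 4 siADAR1 libraries in 72 of the 209 genes (34.4%) and both below them in 7, beside 16.6% and 12% of all genes tested. The first of these shares was 22.3% of protein-coding genes at the same level. With siControl replicate 1 left out, 0 genes were called with both siRNAs by limma, and with siControl replicate 2 left out 2 were. Without siADAR1 #1 replicate 1 there were 6, and without siADAR1 #2 replicate 1 there were 8. Among the 12 genes described with their values, the siADAR1 #2 calls of *ZNF253*, *ZNF649* and *ZNF480* were kept in all 18 settings, the reported one included. Those of *ZNF681*, *ZNF714*, *ZNF93* and *ZNF615* were kept in 17, that of *ZNF285* in 16, that of *ZNF580* in 15, that of *ZNF829* in 14 and those of *ZNF260* and *ZNF180* in 12. The siADAR1 #1 calls were kept in 17 settings for *ZNF180*, in 15 for *ZNF681*, *ZNF253* and *ZNF649*, in 14 for *ZNF714*, *ZNF260* and *ZNF285*, and in 13 for *ZNF480*, *ZNF93*, *ZNF829*, *ZNF615* and *ZNF580*.

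*ZNF681* (chr19:23739195-23758891, minus strand), a KRAB zinc finger gene of 19p12, had the largest fall with siADAR1 #2. Its normalized counts were 591 and 415 in siControl, 149 and 186 with siADAR1 #1, and 107 and 158 with siADAR1 #2. Means were 503 ± 125, 167 ± 26.3 and 132 ± 36.5 (SD, n = 2), so that 33.2% and 26.3% of the control mean were left (log2FC −1.56 ± 0.28 SE, adjusted p = 0.01, and −1.91 ± 0.28, adjusted p = 0.00213, limma). The siControl libraries were the furthest apart and still above the other 4. The call with siADAR1 #1 was lost without siControl replicate 1, without siADAR1 #1 replicate 1 and without a filter on low values. The call with siADAR1 #2 was lost only without that filter.

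*ZNF285*, a KRAB zinc finger gene of 19q13.31, had the largest fall with siADAR1 #1. Normalized counts were 102 and 79.6 in siControl, 34.6 and 21.4 with siADAR1 #1, and 24.9 and 23.4 with siADAR1 #2 (log2FC −1.64 ± 0.35 SE, adjusted p = 0.0171, and −1.80 ± 0.35, adjusted p = 0.00672, limma). Its level per kb of exon in siControl was the lowest of the 17 genes, and its siControl libraries did not overlap the rest. *ZNF93*, whose protein binds L1PA retrotransposons, had 463 and 460 in siControl, 148 and 256 with siADAR1 #1, and 168 and 141 with siADAR1 #2. The siADAR1 #1 libraries differed more from each other than the siControl libraries did, and all 4 were lower (log2FC −1.23 ± 0.28 SE, adjusted p = 0.021, and −1.57 ± 0.28, adjusted p = 0.00468, limma).

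*ZNF253* and *ZNF714* lie in the same 19p12 cluster as *ZNF681* and *ZNF93*. *ZNF253* had normalized counts of 435 and 481 in siControl, 210 and 192 with siADAR1 #1, and 183 and 217 with siADAR1 #2, so that 43.9% and 43.6% of the control mean were left. *ZNF714* had 1485 and 1511 in siControl, 515 and 817 with siADAR1 #1, and 616 and 624 with siADAR1 #2, or 44.5% and 41.4% of the control mean. Neither gene passed the test between the siRNAs (adjusted p = 0.971 and 0.842, limma). The difference between the siRNAs was a log2FC of 0.01 ± 0.20 SE in *ZNF253* and 0.07 ± 0.21 SE in *ZNF714*.

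*ZNF649*, *ZNF480* and *ZNF615* belong to the cluster at 19q13.41. *ZNF649* had normalized counts of 529 and 440 in siControl, 216 and 219 with siADAR1 #1, and 203 and 160 with siADAR1 #2 (log2FC −1.14 and −1.41, adjusted p = 0.011 and 0.00229, limma). *ZNF480* fell from 1285 and 1144 to 736 and 725 with siADAR1 #1 and to 667 and 605 with siADAR1 #2. *ZNF615* fell from 528 and 453 to 235 and 280 with siADAR1 #1 and to 183 and 231 with siADAR1 #2. In these 3 genes the siControl libraries lay above the other 4 without overlap, and 37.4% to 60.1% of the control mean was left.

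*ZNF260* and *ZNF829* lie at 19q13.12, *ZNF180* at 19q13.31 and *ZNF580* at 19q13.42. *ZNF260* fell from normalized counts of 1660 and 1889 to 1063 and 1009 with siADAR1 #1 and to 1128 and 1252 with siADAR1 #2. *ZNF829* fell from 295 and 290 to 94.5 and 150 and to 109 and 157. The falls of *ZNF829* were the larger, to 41.7% and 45.4% of the control mean, against 58.4% and 67.1% for *ZNF260*. *ZNF180* fell from 775 and 764 to 369 and 407 with siADAR1 #1 and to 513 and 527 with siADAR1 #2 (adjusted p = 0.00663 and 0.0278, limma). Its libraries ranked siADAR1 #1, siADAR1 #2 and siControl from low to high with no overlap, but the siRNAs did not pass the test against each other (log2FC −0.42, adjusted p = 0.066, limma). *ZNF580* fell from 1248 and 1127 to 663 and 794 and to 636 and 773, although its neighbour *ZNF581*, with which it shares exonic sequence, had 658 and 651 in siControl, 855 and 915 with siADAR1 #1 and 608 and 664 with siADAR1 #2.

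**Figure D1:**
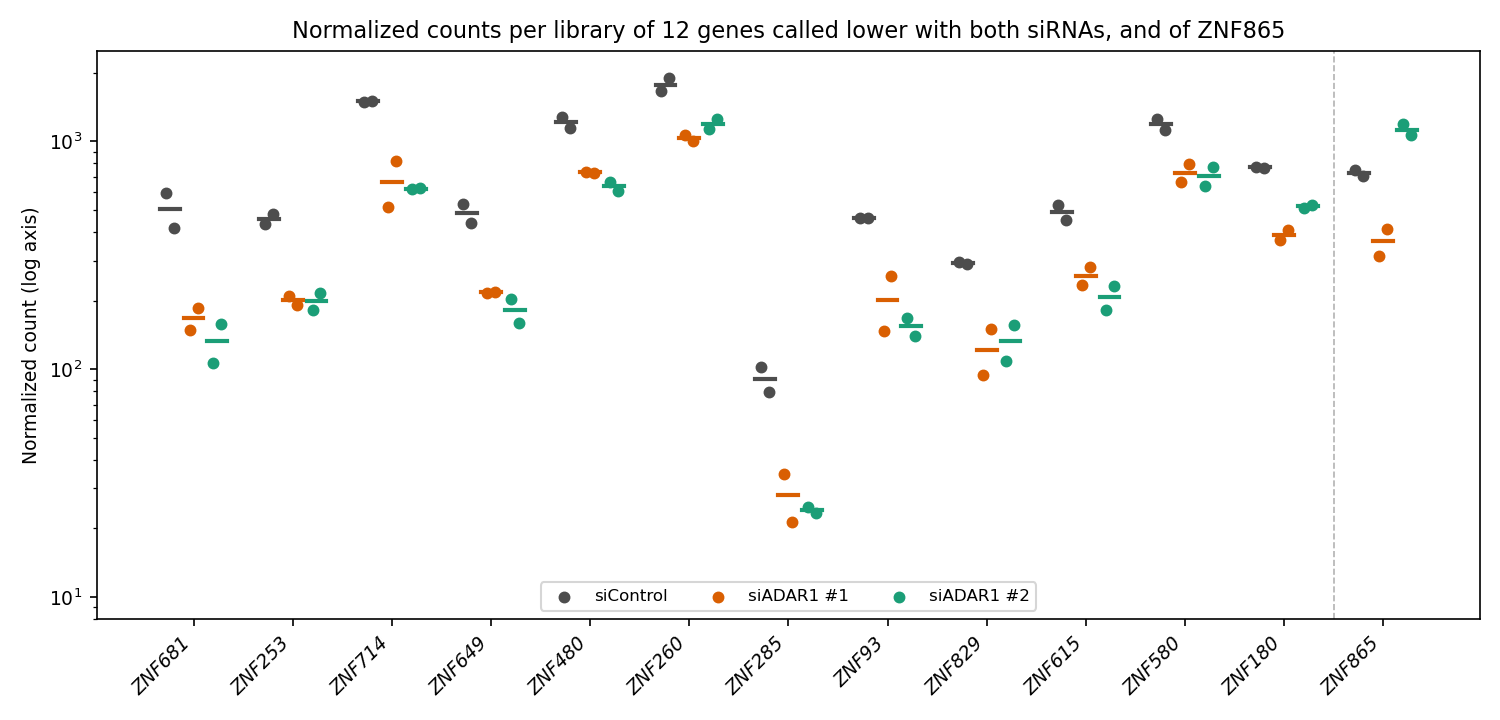
Normalized counts (log axis) of each library for the 12 genes called lower with both siRNAs that are described with their values, and for *ZNF865* right of the dashed line. Points are libraries, bars are means of 2 libraries, and colours give the transfection. In the 12 genes both siControl libraries lie above the 4 siADAR1 libraries, and in *ZNF865* the siADAR1 #1 libraries lie below and the siADAR1 #2 libraries above siControl.

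*ZNF865* (chr19:55605647-55617269, plus strand), in 19q13.42, was the gene called in opposite directions. Its normalized counts were 749 and 703 in siControl, 314 and 413 with siADAR1 #1, and 1187 and 1063 with siADAR1 #2. Means were 726 ± 32.8, 364 ± 70.0 and 1125 ± 87.5 (SD, n = 2), and the 3 groups did not overlap. The gene fell to 50.1% of the control mean with siADAR1 #1 (log2FC −1.0 ± 0.18 SE, adjusted p = 0.00985, limma) and rose to 155% with siADAR1 #2 (log2FC 0.63 ± 0.18 SE, adjusted p = 0.0323). Both calls were lost when either siControl library was left out, and that with siADAR1 #2 also when either siADAR1 #2 library was left out. The direction of both differences stayed the same in each alternative. The GC content of its transcript, 70.9%, was the highest of the 209 genes.

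The siRNAs were also compared directly. Levels with siADAR1 #1 were called lower than with siADAR1 #2 in 33 genes and higher in 11, which is 15.8% and 5.26% of the 209 genes, beside 16.7% and 16.1% of all genes tested and 20.5% and 21.9% of protein-coding genes at the same level. The median difference was −0.13, and it was −0.003 after centring of the libraries on their medians. With centred libraries 28 genes were called lower and 16 higher. Without siADAR1 #2 replicate 1 there were 27 calls in all. Of the 24 genes called lower with siADAR1 #1 but not with siADAR1 #2, 16 were also called between the siRNAs. Of the 21 genes called lower with siADAR1 #2 but not with siADAR1 #1, 6 were, and of the 8 genes called higher with siADAR1 #2, 7 were. In the other genes a call with a single siRNA does not show a difference between the siRNAs. The genes in these counts were chosen by calls on the same siADAR1 libraries that the direct comparison uses. The counts are therefore no independent evidence that the siRNAs differ.

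Among the direct differences, *ZNF792* in 19q13.11 had normalized counts of 122 and 167 in siControl, 209 and 201 with siADAR1 #1, and 42.0 and 90.8 with siADAR1 #2. The siADAR1 #1 libraries were the highest and the siADAR1 #2 libraries the lowest (log2FC 1.69 between the siRNAs, adjusted p = 0.00908, limma). Its siADAR1 #2 call against siControl was kept in 9 of 18 settings and lost when either siControl library was left out. *ZNF83* in 19q13.41 had 860 and 787 in siControl, 469 and 467 with siADAR1 #1, and 971 and 913 with siADAR1 #2. The siADAR1 #1 libraries lay below the other 4 (log2FC −0.81 ± 0.15 SE against siControl, adjusted p = 0.00996, and −1.0 between the siRNAs, adjusted p = 0.00151, limma). *ZNF428*, named for its high level per kb, was called in the direct comparison and in neither comparison with siControl, with 718 and 705 in siControl, 902 and 913 with siADAR1 #1 and 621 and 623 with siADAR1 #2 (log2FC 0.54, adjusted p = 0.0175, limma). This call was lost when any 1 of the 4 siADAR1 libraries was left out, with adjusted p up to 0.0788.

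By position, the annotated ZNF genes of the chromosome were split wherever neighbours were more than 1 Mb apart. This gave 16 clusters or single genes, of which 9 held 5 or more of the 209 genes and 201 genes in all, and 8 genes lay elsewhere. The short arm held 68 genes, of which 11 were called lower with siADAR1 #1 and 12 with siADAR1 #2 (16.2% and 17.6%). The long arm held 141 genes, with 30 and 26 (21.3% and 18.4%). Beside these shares stand 10.6% and 15.5% of all genes tested and 15.3% and 22.8% of protein-coding genes at the same level. Median log2FC was −0.36 and −0.10 on the short arm and −0.44 and −0.26 on the long arm.

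**Figure D2:**
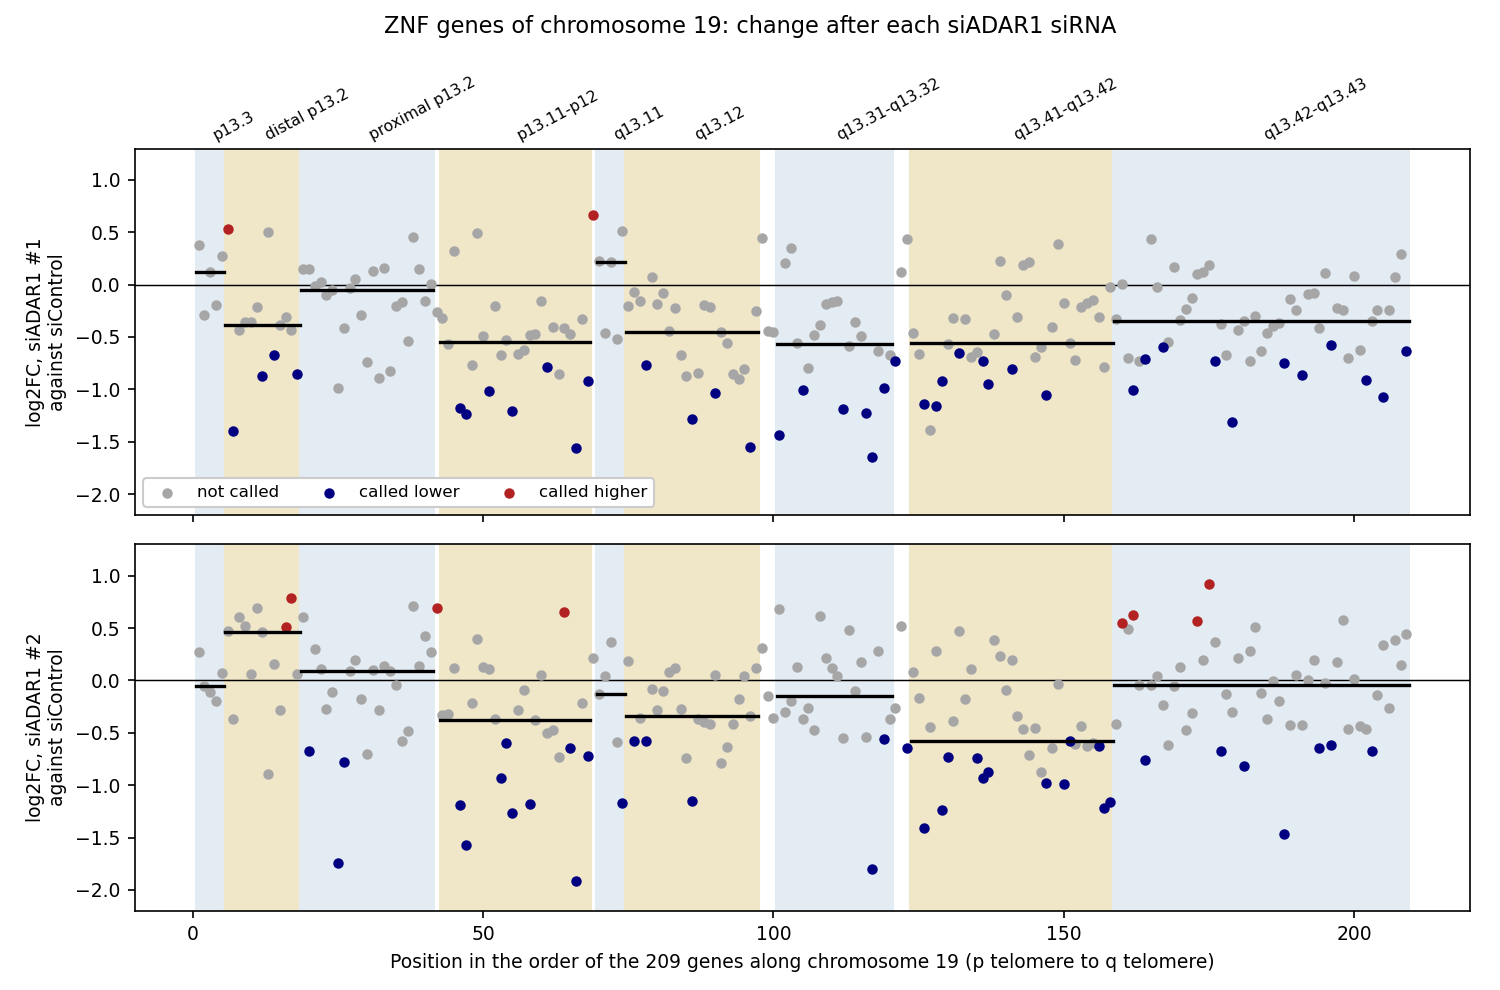
Log2FC of each of the 209 genes against siControl (y axis), in their order along chromosome 19 (x axis), for siADAR1 #1 (top) and siADAR1 #2 (bottom). Colours mark genes called lower or higher, shaded bands are the 9 clusters of 5 or more genes with their cytogenetic bands, and black bars are cluster medians. The medians of the bands p13.11-p12 and q13.41-q13.42 lie between −0.58 and −0.38 in both panels, while that of distal p13.2 is negative in the upper and positive in the lower panel.

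The cluster at 19p13.11 to 19p12 (chr19:19668796-24129968) held 26 of the 209 genes, from 37 annotated. With siADAR1 #1, 7 were called (26.9%), each of them lower, and the median log2FC was −0.55. With siADAR1 #2, 9 were called lower (34.6%) and 1 higher, *ZNF91*, and the median was −0.38. Called lower were 10.6% and 15.5% of all genes tested, and 15.3% and 22.8% of protein-coding genes at the same level. In 14 of the 26 genes (53.8%) the siControl libraries were both above all 4 siADAR1 libraries. This held for 16.6% of all genes tested and 22.3% of protein-coding genes at the same level. The genes lower with both siRNAs were *ZNF681*, *ZNF253*, *ZNF93*, *ZNF714* and *ZNF254*, and *ZNF254* fell from normalized counts of 977 and 715 to 453 and 427 with siADAR1 #1 and to 452 and 564 with siADAR1 #2. In the alternatives the cluster median ranged from −0.68 to −0.40 for siADAR1 #1 and from −0.54 to −0.26 for siADAR1 #2. The transcripts of this cluster had the lowest median GC content of the 9 clusters, at 37.0%.

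The cluster at 19q13.41 to 19q13.42 (chr19:51571283-53580269) held 35 genes. With siADAR1 #1, 8 were called lower (22.9%) and the median was −0.56. With siADAR1 #2, 12 were called lower (34.3%) and the median was −0.58. Each gene called in this cluster was lower. The medians ranged from −0.56 to −0.40 and from −0.63 to −0.43 in the alternatives. In 17 of the 35 genes (48.6%) the siControl libraries were both above the 4 siADAR1 libraries. This held for 16.6% of all genes tested and 22.3% of protein-coding genes at the same level. In the distal and proximal parts of 19p13.2 the share was 15.4% and 17.4%. The neighbouring cluster at 19q13.42 to 19q13.43 (chr19:55476617-58481230), with 51 genes the largest, had 11 called lower with siADAR1 #1 (21.6%, median −0.35). With siADAR1 #2 it had 7 called lower and 4 higher (13.7% and 7.84%, median −0.05), among them *ZNF865* and *ZNF460* on the higher side. Over all genes tested, 10.6% were called lower with siADAR1 #1, and 15.5% lower and 11.1% higher with siADAR1 #2. Of protein-coding genes at the same level, these shares were 15.3%, 22.8% and 13%. Both siADAR1 #2 shares of this cluster were thus below those of either set.

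*ZNF274*, whose protein binds the coding 3′ ends of ZNF genes on this chromosome together with SETDB1, lies in the last of these clusters. Normalized counts of *ZNF274* were 1263 and 894 in siControl, 522 and 611 with siADAR1 #1, and 788 and 751 with siADAR1 #2. All 4 siADAR1 libraries were lower, and the fall was called with siADAR1 #1 (log2FC −0.91 ± 0.20 SE, adjusted p = 0.018, limma) and not with siADAR1 #2 (log2FC −0.46 ± 0.20, adjusted p = 0.114). The difference between the siRNAs for *ZNF274* did not pass (adjusted p = 0.113).

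At 19q13.12 (chr19:36182276-37817300) 23 genes had a median of −0.46 with siADAR1 #1, with 4 called lower (17.4%). With siADAR1 #2 it was −0.34, with 3 called lower (13%). At 19q13.31 to 19q13.32 (chr19:43525497-45076478) 20 genes had medians of −0.57, with 6 called lower (30%), and −0.15, with 2 called lower (10%). The second of these medians ran from −0.25 to 0.04 in the alternatives. Called lower were 10.6% and 15.5% of all genes tested, and 15.3% and 22.8% of protein-coding genes at the same level. The siADAR1 #2 shares of both clusters were below these.

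The cluster in the distal part of 19p13.2 (chr19:7069703-9675100) had medians of opposite sign with the siRNAs, although 0 of its genes were called by limma in opposite directions. Of its 13 genes, 4 were called lower and 1 higher with siADAR1 #1 (30.8% and 7.69%, median −0.38). With siADAR1 #2, 2 were called, both higher (15.4%, median 0.46). Over all genes tested these shares were 10.6%, 6.18% and 11.1%. Of protein-coding genes at the same level they were 15.3%, 8.17% and 13%. Between the siRNAs 9 of the 13 (69.2%) were called lower with siADAR1 #1 than with siADAR1 #2 and 1 higher. Called lower in this comparison were 16.7% of all genes tested and 20.5% of protein-coding genes at the same level. The median difference of −0.88 ran from −0.92 to −0.75 in the alternatives. The neighbours *ZNF561* and *ZNF562* were lower with siADAR1 #1 than with siADAR1 #2. *ZNF561* had normalized counts of 558 and 597 in siControl, 390 and 466 with siADAR1 #1, and 998 and 999 with siADAR1 #2. *ZNF562* had 2023 and 1972 in siControl, 1034 and 1176 with siADAR1 #1, and 2094 and 2080 with siADAR1 #2. In *ZNF561* the rise with siADAR1 #2 was called (log2FC 0.79 ± 0.16 SE, adjusted p = 0.00825, limma), and in *ZNF562* the fall with siADAR1 #1 (log2FC −0.86 ± 0.13 SE, adjusted p = 0.00561, limma). *ZNF561* was not called with siADAR1 #1 (log2FC −0.43, adjusted p = 0.101, limma), nor *ZNF562* with siADAR1 #2 (log2FC 0.06, adjusted p = 0.751, limma). Both differed between the siRNAs, with log2FC of −1.22 and −0.92 (adjusted p = 0.00102 and 0.00125, limma).

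The 23 genes in the proximal part of 19p13.2 (chr19:11483427-12640098) had medians of −0.06 and 0.09, whose signs changed in the alternatives. With siADAR1 #1, 0 were called by limma and 5 had an unadjusted p under 0.05. With siADAR1 #2, 3 were called lower (13%). Called lower were 10.6% and 15.5% of all genes tested, and 15.3% and 22.8% of protein-coding genes at the same level. *ZNF700* was the gene of this cluster with the smallest adjusted p-value in both comparisons. It had normalized counts of 909 and 850 in siControl, 643 and 672 with siADAR1 #1, and 508 and 513 with siADAR1 #2 (log2FC −0.42, adjusted p = 0.0859, and −0.78, adjusted p = 0.00568, limma). Of its stretches, 15.2% also occur in exons of another gene, and 17.4% of its exon length is overlapped on the same strand. At 19p13.3 and 19q13.11, with 5 genes each, 1 gene was called lower, *ZNF792* with siADAR1 #2. The smallest adjusted p-values there with siADAR1 #1 were 0.366 for *ZNF554* and 0.105 for *ZNF30*, and *ZNF57* had 0.484 with siADAR1 #2.

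**Figure D3:**
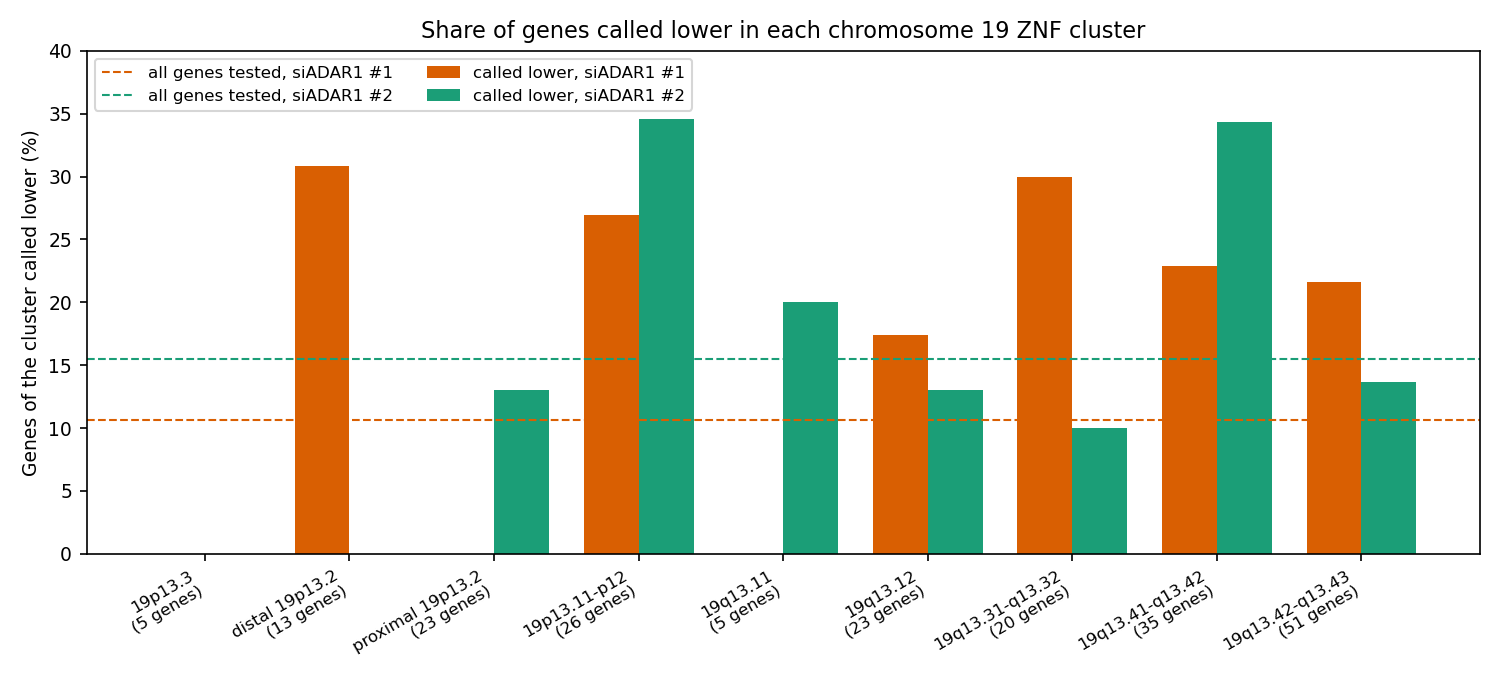
Share of the genes of each cluster that were called lower (y axis, percent) with siADAR1 #1 and with siADAR1 #2, for the 9 clusters in their order along the chromosome, with the number of genes. Dashed lines give the same share over all genes tested, 10.6% and 15.5%, and not the 15.3% and 22.8% of coding genes at the same level. With siADAR1 #2 the bars of 19p13.11-p12 and 19q13.41-q13.42 reach 34.6% and 34.3%, and the bar of 19q13.11 stands for 1 gene of 5.

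ZNF genes of other chromosomes, chosen by the same rule for symbol, biotype and level, numbered 214. With siADAR1 #1, 29 of them were called lower and 16 higher (13.6% and 7.48%), and the median log2FC was −0.06. With median-centred libraries 26 were called lower and 27 higher, and the median was 0.09. On chromosome 19 these shares were 19.6% and 0.957%, with a median of −0.41. With siADAR1 #2, 40 of the 214 were called lower and 14 higher (18.7% and 6.54%), with a median of −0.09, against 18.2%, 3.83% and a median of −0.19 on chromosome 19. With quantile-normalized libraries 37 were called lower and 22 higher. Negative values with siADAR1 #2 were seen in 63.6% of the genes on other chromosomes and in 61.7% on chromosome 19. No test of a whole set was made. On other chromosomes 12 were called lower with both siRNAs, 5 higher with both and 4 in opposite directions.

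The other 718 protein-coding genes of chromosome 19 at the same level had 150 called lower and 50 higher with siADAR1 #1 (20.9% and 6.96%), with a median of −0.17. With siADAR1 #2 they had 119 called lower and 101 higher (16.6% and 14.1%), with a median of 0.00. Among the ZNF genes the shares were 19.6% and 0.957% with siADAR1 #1 and 18.2% and 3.83% with siADAR1 #2. For all 12645 protein-coding genes at this level the medians were −0.08 and −0.10, with 15.3% called lower and 8.17% higher with siADAR1 #1 and 22.8% and 13% with siADAR1 #2.

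**Figure D4:**
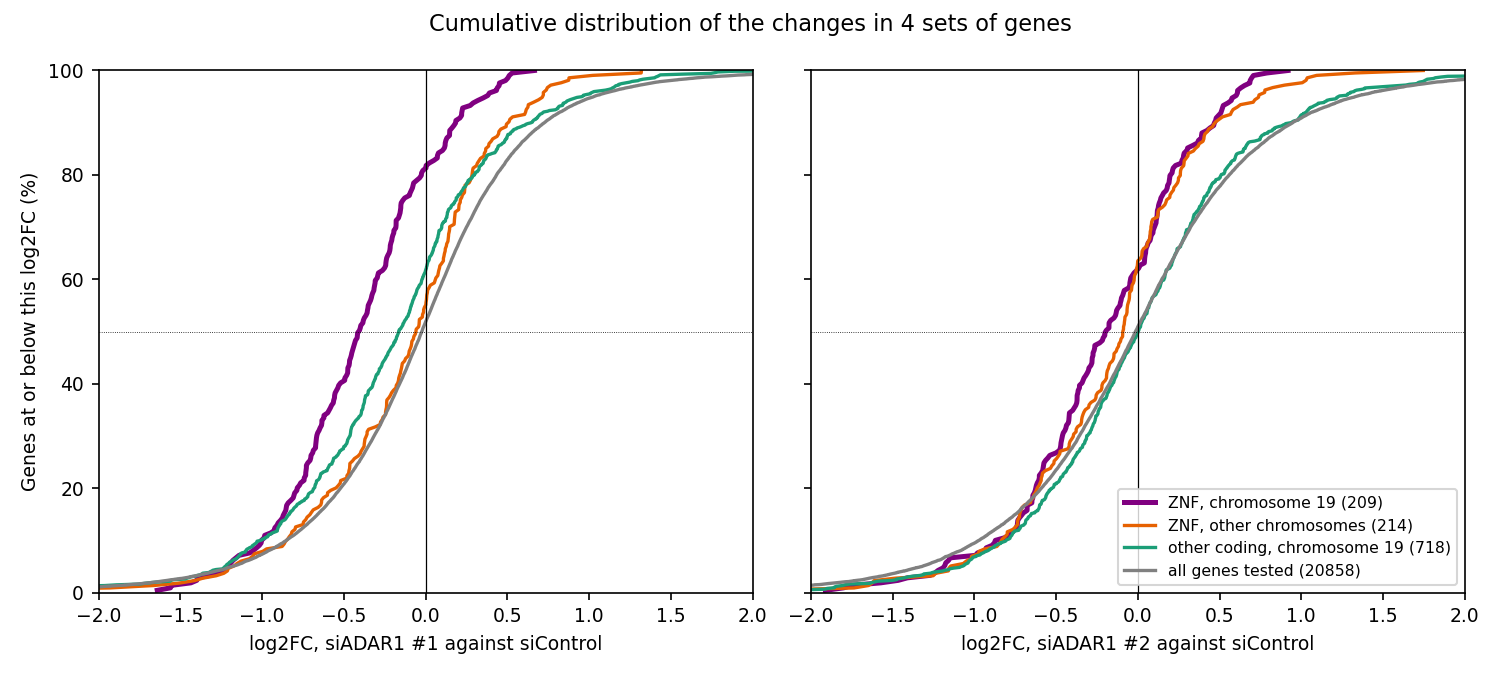
Cumulative distribution of log2FC against siControl (x axis; values beyond −2 and 2 not drawn) for siADAR1 #1 (left) and siADAR1 #2 (right), with the percentage of genes at or below each value on the y axis. The curve of the 209 ZNF genes of chromosome 19 lies left of the others over most of its range with siADAR1 #1, crossing the 50% line at −0.41 against −0.06 for ZNF genes of other chromosomes, and lies near the latter with siADAR1 #2.

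Of the 170 genes with the KRAB pattern, 28 were called lower with siADAR1 #1 and 31 with siADAR1 #2 (median log2FC −0.40 and −0.20). These are 16.5% and 18.2%, beside 10.6% and 15.5% of all genes tested and 15.3% and 22.8% of protein-coding genes at the same level. Of the 39 without it, 13 and 7 were called lower (33.3% and 17.9%, median −0.45 and −0.15). On other chromosomes 81 genes had the pattern, with 8 and 11 called lower and medians of −0.14 and −0.08. Spearman's rho with log2FC over the 209 genes was −0.05 and −0.06 for the number of fingers and 0.03 and −0.01 for transcript length. These are correlations across genes of the same libraries, and genes are not independent replicates.

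Values by GC content stand beside these counts, and the part of GC content in them was not tested. Spearman's rho between GC content and log2FC over the 209 genes was 0.14 with siADAR1 #1 and 0.27 with siADAR1 #2. In the 60 genes with a GC content of 40% or less, 16 were called lower with siADAR1 #2 (26.7%) and the median was −0.39. In the 49 such ZNF genes of other chromosomes 10 were called lower (20.4%), with a median of −0.15. Of all protein-coding genes of this range a similar share, 25.9%, was called lower, and the median was also −0.15. In the 23 genes with over 55%, 1 was called lower with siADAR1 #2 and 8 with siADAR1 #1 (4.35% and 34.8%). Of protein-coding genes of that range 18.1% and 19.8% were called lower. With siADAR1 #1 the median was −0.51, −0.33 and −0.45 in the 3 ranges, against −0.02, −0.08 and −0.05 for ZNF genes of other chromosomes. Removing the trend with GC content and length from every library left 41 of the 209 genes called with siADAR1 #1 and 45 with siADAR1 #2, with medians of −0.34 and −0.16.

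**Figure D5:**
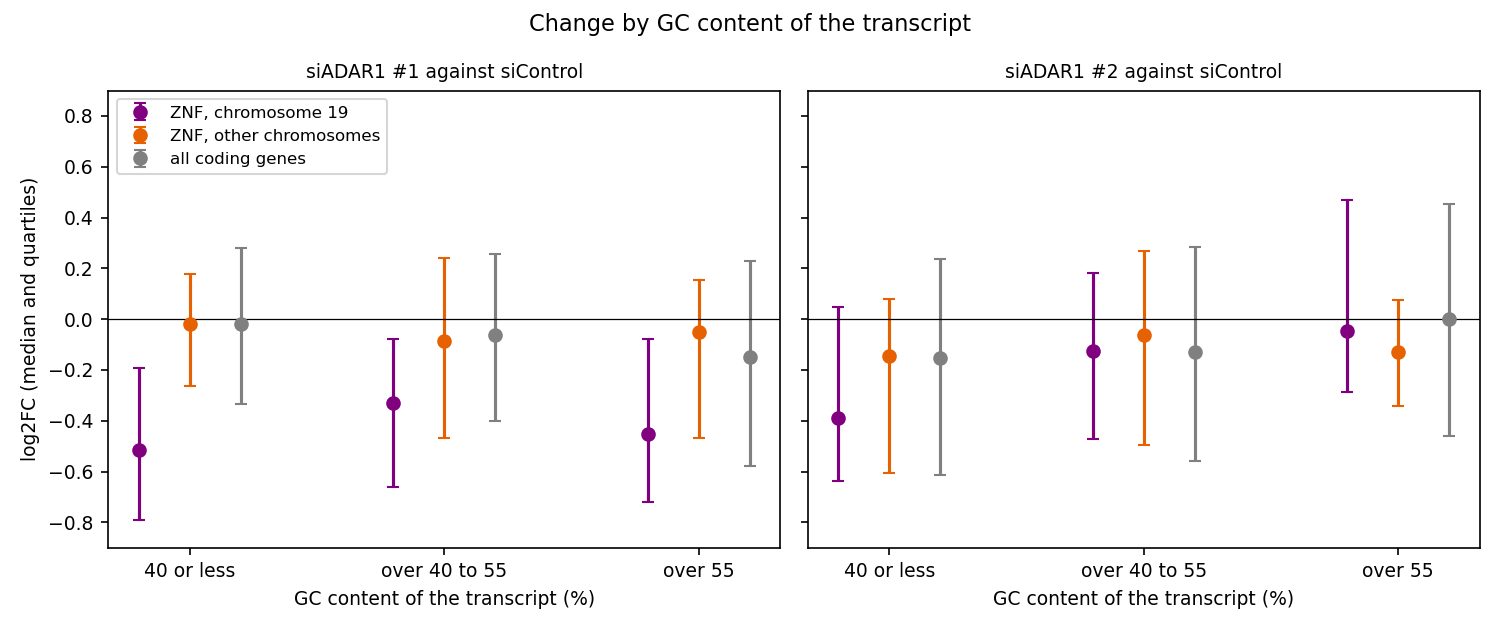
Median log2FC against siControl with quartiles (y axis) in 3 ranges of transcript GC content (x axis, percent), for the ZNF genes of chromosome 19, the ZNF genes of other chromosomes and all protein-coding genes at the same level. With siADAR1 #1 (left) the medians of the chromosome 19 genes, −0.51, −0.33 and −0.45, lie below both other sets in each range, and with siADAR1 #2 (right) the widest gap is in the range of 40% or less.

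The counts were also taken by shared sequence and by strand. Among the 159 genes with under 5% of shared 75-base stretches, 31 were called lower with siADAR1 #1 and 30 with siADAR1 #2 (19.5% and 18.9%, median −0.42 and −0.21). Among the 50 genes with 5% or more, 10 and 8 were called lower (20% and 16%, median −0.39 and −0.13). On the plus strand 20 and 24 of 116 genes were called lower (17.2% and 20.7%), and on the minus strand 21 and 14 of 93 (22.6% and 15.1%). Beside these shares stand 10.6% and 15.5% of all genes tested and 15.3% and 22.8% of protein-coding genes at the same level.

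RefSeq promoters, from 250 bases before to 50 after the start (GRCh38.p14), were matched for 187 of the 209 genes. The motif core CCGGAAG, bound by factors of the ETS family, was found on either strand in 43.3% of them, in 39.3% of 178 promoters of ZNF genes on other chromosomes and in 14.4% of all 15345 coding promoters, which include both sets. The CCAAT box (CCAAT) was found in 53.5%, 44.4% and 36.6%, and in 23 of 23 promoters of the 19p12 cluster, where CCGGAAG was found in 16. The GC box (GGGCGG) was found in 69.5%, 63.5% and 59.2%. Other motifs searched were rarer. GCGCATGC, the NRF1 core, was found in 3.21%, 6.74% and 4.25%, and TGACGTCA, the CRE motif, in 3.74%, 5.06% and 2.64%. AAGATGG, the YY1 core, was found in 7.49%, 6.74% and 6.43%, and TTTCCCGC, the E2F core, in 1.6%, 3.37% and 2.2%. Of 13 promoters of genes called lower with both siRNAs, 9 held CCAAT, 8 held CCGGAAG and 5 held GGGCGG. Motifs were searched on both strands and may overlap each other. The 120 bases before the start are printed for *ZNF681* and *ZNF93*, which were lower with both siRNAs, and for *ZNF865*, which moved in opposite directions. Capitals mark CCAAT boxes, GC boxes and CCGGAAG on either strand. They lie at chr19:23758892-23759011 (minus strand), chr19:19900826-19900945 (plus strand) and chr19:55605527-55605646 (plus strand).
ZNF681: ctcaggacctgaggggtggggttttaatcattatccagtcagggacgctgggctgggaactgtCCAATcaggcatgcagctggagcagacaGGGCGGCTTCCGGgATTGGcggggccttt
ZNF93: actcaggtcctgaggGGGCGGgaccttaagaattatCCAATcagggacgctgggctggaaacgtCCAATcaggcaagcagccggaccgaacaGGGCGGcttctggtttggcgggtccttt
ZNF865: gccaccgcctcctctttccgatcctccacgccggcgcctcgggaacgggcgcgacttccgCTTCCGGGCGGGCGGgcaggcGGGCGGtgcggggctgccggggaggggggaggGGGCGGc

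The windows of *ZNF681* and *ZNF93* held 2 CCAAT boxes each on either strand, and that of *ZNF865* none. GC boxes were found in all 3 windows, 1 in *ZNF681*, 2 in *ZNF93* and 4 in *ZNF865*, and the ETS core in *ZNF681* and *ZNF865*. A match of letters is no measure of binding.

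The cofactors of KRAB zinc finger proteins and the H3K9 methylation machinery were described from a list of 27 genes, all tested. With siADAR1 #1, 5 were called lower and 1 higher, with a median log2FC of 0.02. With siADAR1 #2, 11 were called, each of them lower, with a median of −0.47. The shares called lower were 18.5% and 40.7%, beside 10.6% and 15.5% of all genes tested and 15.3% and 22.8% of protein-coding genes at the level of 5. These sets are not matched for level: the median of the mean log2 values was 12.79 in the list, 8.22 in all genes tested and 10.45 in the coding genes. *TRIM28*, the corepressor that the KRAB domain binds, had normalized counts of 17937 and 17673 in siControl, 20592 and 19949 with siADAR1 #1, and 13390 and 11607 with siADAR1 #2 (log2FC 0.19, adjusted p = 0.283, and −0.51, adjusted p = 0.0102, limma). The 3 groups of libraries did not overlap, and the siRNAs lay on opposite sides of siControl. *CBX5*, which encodes the HP1 alpha protein, had 32955 and 25268 in siControl, 44934 and 35138 with siADAR1 #1, and 6842 and 9048 with siADAR1 #2 (log2FC −1.87 with siADAR1 #2, adjusted p = 0.000574, limma). *SETDB1* was called with neither siRNA (log2FC −0.164 and 0.095, adjusted p = 0.504 and 0.686, limma). The other HP1 genes, *CBX1* and *CBX3*, were not called either (log2FC 0.096 and 0.071 with siADAR1 #1, −0.084 and −0.438 with siADAR1 #2). Negative values with siADAR1 #2 were seen in 23 of the 27. The genes lower with both siRNAs were *DNMT1*, the maintenance DNA methyltransferase, and *UHRF1*, which guides it (log2FC −0.74 and −1.04 with siADAR1 #1, −0.99 and −1.03 with siADAR1 #2). *EHMT1* was called higher with siADAR1 #1 (log2FC 0.86, adjusted p = 0.0115, limma), whereas its partner *EHMT2* was called lower (log2FC −0.66, adjusted p = 0.0174).

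C2H2 genes of chromosome 19 under other names were taken from a list of 20, of which 14 were tested. *ZFP112* of this list is an older symbol of *ZNF112*, which is among the 209 genes. Of the 14, 2 were called lower with siADAR1 #1 (*KLF16* and *ZBTB45*) and 4 with siADAR1 #2 (*KLF2*, *ZFP28*, *ZFP30* and *ZFP82*). These are 14.3% and 28.6% of the list, beside 10.6% and 15.5% of all genes tested and 15.3% and 22.8% of protein-coding genes at the level of 5. No level rule was set for the list, whose median level was 7.92. It includes *ZIM3*, with normalized counts of 6.53 to 14.7. The median log2FC was −0.30 with siADAR1 #1 and −0.18 with siADAR1 #2.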

How the data were processed

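Gene expression was measured in 6 libraries of Cal62 cells, 2 for each of siControl, siADAR1 #1 and siADAR1 #2. The authors sequenced poly(A)+ RNA in 75-bp paired-end reads, trimmed it with Atropos and counted genes in bcbio-nextgen. FastQC, featureCounts and Salmon are named in the submitters' processing notes, with no version, and the build is GRCh38. The authors deposited log2 values, obtained by variance stabilization of counts normalized in DESeq2. Undoing it with the lowest value, 0.347736, as a count of 0 gave whole reads for 100% of the values up to 5000 reads within a tolerance of 0.1. Normalized counts were computed in this way. No counting limit is needed for these genes, as every one had at least 12 reads per library.

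The log2 values of 20858 genes, with a mean of at least log2 of 10 (a normalized count of 7.617), were fitted with limma 3.58.1 in R 4.3.3, with 1 fit for the 3 groups (lmFit, eBayes with trend, 3 residual degrees of freedom). Tests were two-sided with Benjamini-Hochberg adjustment over all genes tested. The design took the study's comparisons and thresholds, and limma in place of its count model because the values are log2. Tables were handled in Python 3.11.15 with pandas 2.3.3 and numpy 2.4.6. The fit was tested on simulated data. On this scale a log2FC understates the change of low genes. 0 columns of the table were left unused.

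Symbols, positions, GC content, coding sequence and exon length come from GENCODE release 44, where every gene kept has an entry. C2H2 fingers were counted by their codon pattern in the canonical transcript. Cytogenetic bands name the clusters.

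Genes were named by a rule: *ZNF681* and *ZNF274*; the 12 genes with the smallest larger adjusted p-value among those called with both siRNAs; genes called in opposite directions; the 5 largest falls and rises for each siRNA; the 3 highest per kb over all libraries; the smallest adjusted p-value in each cluster; and the genes next to the level. The 209 genes, the lists and the rule were chosen with earlier results of these data known. *CBX5*, *TRIM28*, *SETDB1*, *CBX1*, *CBX3*, *DNMT1*, *UHRF1*, *EHMT1*, *EHMT2*, *ZIM3* and the genes counted in groups of 5 or fewer were named after their values were seen. The alternatives were other filters, scalings, variance models and scales, a replicate block, a correction of each library for GC content and length (splines of 5 degrees of freedom), and leaving out each library.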

Additional observations from a re-analysis of the deposited data

Results flagged for a closer look

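*ZNF865* was the gene in which the difference between the siRNAs stood out, because the effects against siControl were called in opposite directions and the siRNAs differed in a test of the difference itself. The log2FC between siADAR1 #1 and siADAR1 #2 was −1.63 ± 0.18 SE (adjusted p = 0.000531, limma), and in all 18 settings, the reported one included, it was called, with values from −1.83 to −1.26. Both siADAR1 #1 libraries lay below both siControl libraries, and both siADAR1 #2 libraries above them. Groups of 2 libraries are too small for a search for single libraries that stand apart.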

How the results depend on the processing

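The medians of the 209 genes kept their sign in each alternative, and no named gene whose change was called turned direction. The calls depended on the variance estimate and on single libraries. For siADAR1 #1 against siControl, siADAR1 #2 against siControl, the direct comparison and both siRNAs together, 4, 13, 19 and 2 genes were called without a filter on low values, against 43, 46, 44 and 17 as reported. In limma without a trend, 13 were called with siADAR1 #1 and 6 with both. The average of the siRNA changes called 42, whereas the siADAR1 libraries as 1 group called 0 in limma, with 42 at an unadjusted p under 0.05. Leaving out 1 library gave 0 to 38, 13 to 46, 27 to 40 and 0 to 13 calls, and medians of −0.478 to −0.306, −0.303 to −0.082 and −0.195 to −0.132 in the 3 comparisons. The median was −0.26 (siADAR1 #1) and −0.003 (direct) with median-centred libraries, −0.259 and −0.002 with quantile-normalized libraries, and −0.343, −0.161 and −0.15 after the correction for GC content and length. The cause was not tested. With the replicate number as a block (replicate block), 49, 49, 47 and 21 genes were called. The numbers stand in the column names alone, and libraries of the same number correlated at 0.106 to 0.162 in their deviations over genes, with 2 pairs. With 2 libraries per condition and 3 residual degrees of freedom, genes with few reads have the least precise changes.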
